A study of Mus musculus with 72 samples.

Results

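Spry2, Spry4, Dusp6, Etv4 and Etv5 are genes whose transcription reports on signalling from fibroblast growth factors through the kinase ERK. Fgf4 is itself such a growth factor, a ligand upstream of ERK and not a report of its activity. All 6 were taken by name from the 22556 genes in the count files. They were followed from embryonic stem (ES) cells to day 52 of neural precursor cell (NPC) differentiation. The data were chromatin-associated RNA-seq (ChrRNA-seq), which reads the RNA still bound to chromatin and so mostly newly made transcripts, from 72 libraries of mouse XX ES cells and their differentiated progeny. Where 1 replicate had 2 libraries (R1 and R2) their counts were added up, which left 65 replicates, 26 of the iXist-ChrX_Dom line and 39 of the iXist-ChrX_Cast line.

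Both lines are F1 hybrids of domesticus (129S) and castaneus (Cast) mice in which a doxycycline-inducible TetOn promoter replaces the Xist promoter, on the 129S allele in iXist-ChrX_Dom and on the Cast allele in iXist-ChrX_Cast. Wild-type (WT) cells of each line were compared with SmcHD1 knockout (KO) clones made by CRISPR, which were clone A3 of iXist-ChrX_Dom and clones D5 and G6 of iXist-ChrX_Cast. Each KO is a single clone, so a clone and its genotype cannot be told apart in iXist-ChrX_Dom. ES cells grew in serum and LIF on mouse fibroblast feeders that were removed by pre-plating, without doxycycline. ES libraries were used for the KO clones alone, with 2 of A3, 2 of D5 and 1 of G6. Differentiation was in N2B27 medium with doxycycline at all times, and libraries were made on days 2, 3, 5 and 7 with 2 or 3 replicates per clone and day. Per the study's methods, cells went into suspension with added EGF and FGF on day 7, were plated again and stayed in both factors. The late libraries (days 15, 21 and 35 in both lines and day 52 in iXist-ChrX_Dom, 1 library per clone and day) are therefore of cells supplied with FGF, while days 2 to 7 are of cells given none. Days were grouped into 4 periods: ES, days 2-3, days 5-7 and late.

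Fibroblast growth factors bind receptor tyrosine kinases that activate the Ras, Raf, MEK and ERK kinase chain. ES cells make Fgf4 themselves, and its signal through ERK moves them out of naive pluripotency and towards lineage commitment. ERK switches on its own brakes, the Sprouty proteins and the phosphatase Dusp6, together with the ETS transcription factors Etv4 and Etv5, and neural precursors are kept dividing in culture by added FGF and EGF.

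ETS factors bind DNA around a GGAA core, so the 250 bases upstream of the start were searched for CGGAA on both strands (TTCCG on the other). RefSeq (GRCm38.p6) promoters were at hand for Fgf4, Spry2, Dusp6 and Etv5. The upstream sequences of Dusp6 (chr10:99262981-99263230, plus strand) and Fgf4 (chr7:144861136-144861385, plus strand) are shown, in mm10, because these genes moved furthest apart from ES cells to late libraries, with each match in capitals.
Dusp6: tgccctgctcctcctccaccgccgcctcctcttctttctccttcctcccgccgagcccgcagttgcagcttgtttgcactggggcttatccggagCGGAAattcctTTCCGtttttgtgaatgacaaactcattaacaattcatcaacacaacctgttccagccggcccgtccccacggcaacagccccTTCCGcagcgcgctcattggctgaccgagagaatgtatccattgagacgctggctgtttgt
Fgf4: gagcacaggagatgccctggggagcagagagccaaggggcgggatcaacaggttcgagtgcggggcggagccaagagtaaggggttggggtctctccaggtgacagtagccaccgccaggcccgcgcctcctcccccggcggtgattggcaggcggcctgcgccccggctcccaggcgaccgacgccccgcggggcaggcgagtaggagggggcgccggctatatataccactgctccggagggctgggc
The Dusp6 window held 3 matches, beginning 155, 144 and 61 bases before the start, which do not overlap each other. No match lay in the window of Fgf4, of Spry2 or of either Etv5 start, and 25.2% of 32851 promoters of the same length held at least 1. GGAA without a C before it was not counted, and it occurs in the window of Spry2 and in a window of Etv5. A window without a match is therefore not always one without the core. These matches are a description of the letters, not of bound sites.

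In mm10, with starts and ends as the count files give them, Fgf4 lies on the plus strand at chr7:144861385-144865243 and Dusp6 on the plus strand at chr10:99263230-99267489. The other genes lie on the minus strand: Spry2 at chr14:105891946-105896819, Spry4 at chr18:38586264-38601268, Etv4 at chr11:101769741-101785310 and Etv5 at chr16:22381312-22439570. Counts run over the whole transcript, introns included, and none of the 6 genes overlaps another gene of the files on either strand.

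Library totals ran from 9344054 to 31216487 fragments assigned to genes. The RNA of Smchd1 did not separate the genotypes, at 217.5 to 664.1 fragments per 1000000 counted (RPM) in 46 KO libraries and 360.2 to 709.3 in 26 WT libraries, so whole-gene counts do not check a small CRISPR edit. Cell type markers did follow the time course: the summed level of 10 pluripotency genes fell from 1436-2130 RPM in ES cells to 4.3-209.6 RPM in late libraries. The NPC label was borne out in part by late libraries. Vim, which fibroblasts make too, stood at 88.5 to 732 RPM and Nes at 24.6 to 298 RPM, while Olig2 was below 1 RPM in all 17 late libraries. Pax6 reached at most 9.39 RPM late, below its 10.2 RPM in 1 ES library. Sox1 was listed at 0 in every library of the series, whatever its stage, so its 0 is no measure of the late cells. All 8 genes of a fibroblast list were measured, and their summed level rose from at most 149.5 RPM on days 2 to 7 to 275.3-16300 RPM late, with Col3a1 at 165 to 11200 RPM.

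The question was how far ERK output was lost before FGF was supplied and regained after it. The ligand Fgf4 was followed beside the output genes. ES libraries also differed from later ones in serum, LIF and doxycycline, which induces Xist, and these cannot be told apart from day. The plot of levels by day shows 3 courses. Fgf4 fell and did not come back. Spry4 and Etv4 fell to a low point on days 5 to 7 and rose again late, with the drop of Etv4 in iXist-ChrX_Dom coming on day 7. Dusp6 held its level to day 7 and then rose, and Etv5 fell and stayed lower. All 6 genes passed the filter on low counts in every fit.

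**Figure D1:**
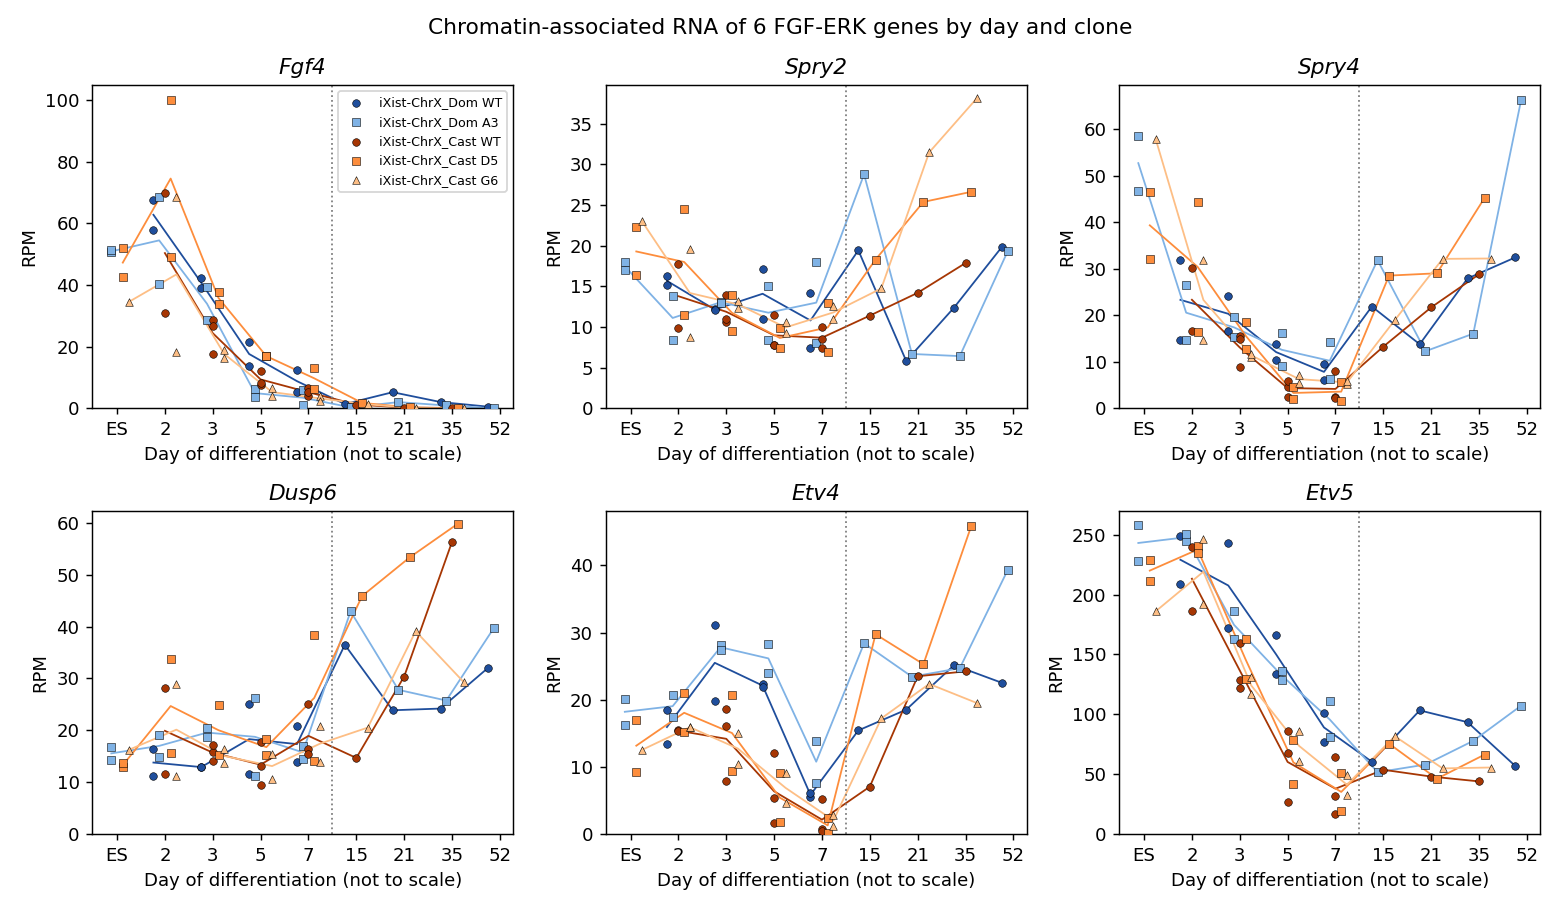
Level of each gene (vertical axis, RPM, from 0) by day of differentiation (horizontal axis, not to scale), with 1 point per replicate and lines joining the mean of each clone. The dotted line stands between day 7 and the late libraries, which had added FGF and EGF. Fgf4 falls from 34.5-52.0 RPM in ES cells to at most 5.28 RPM late, while Spry4 and Etv4 of iXist-ChrX_Cast dip on days 5 and 7 and recover.

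Fgf4 is the ligand that ES cells secrete. In iXist-ChrX_Dom its level was 50.6 and 51.2 RPM in the ES libraries, 28.6 to 68.5 RPM with a median of 41.5 on days 2-3 (n = 8), 1.16 to 21.6 RPM with a median of 6.05 on days 5-7 (n = 8), and 0 to 5.28 RPM with a median of 1.21 late (n = 8). In iXist-ChrX_Cast the ES libraries held 34.5, 42.6 and 52.0 RPM, days 2-3 held 16.4 to 99.9 RPM with a median of 30.9 (n = 13), days 5-7 held 2.50 to 17.05 RPM with a median of 6.64 (n = 14), and late libraries held 0 to 1.82 RPM with a median of 0.309 (n = 9). All 8 replicates of days 5-7 in iXist-ChrX_Dom, and 12 of 14 in iXist-ChrX_Cast, lay below the lowest replicate of days 2-3, and all 9 late libraries of iXist-ChrX_Cast lay below the lowest replicate of days 5-7. In iXist-ChrX_Dom only 4 of 8 late libraries did.

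From ES cells to days 2-3 the change in Fgf4 was small against its error in both lines (log2 change -0.16 ± 0.76 SE in iXist-ChrX_Dom and -0.15 ± 0.61 in iXist-ChrX_Cast), with 95% intervals from -1.64 to 1.32 and from -1.34 to 1.04. To days 5-7 it fell 6.02-fold in iXist-ChrX_Dom (log2 change -2.59 ± 0.47, adjusted p = 0.000225) and 4.52-fold in iXist-ChrX_Cast (-2.18 ± 0.36, adjusted p = 5.54e-06), by edgeR's quasi-likelihood test with Benjamini-Hochberg adjustment over all genes tested. This test and adjustment hold for every adjusted p given here. Late libraries were lower again, 4.52-fold in iXist-ChrX_Dom (-2.18 ± 0.48, edgeR adjusted p = 0.00103) and 11.4-fold in iXist-ChrX_Cast (-3.51 ± 0.52, edgeR adjusted p = 1.27e-06). Against the ES libraries of the same clones, the late level was 44.7-fold lower in A3 and 62.6-fold lower over D5 and G6. Fgf4 was at 0 fragments in 3 of 17 late libraries (A3 on day 52, D5 on day 35 and G6 on day 35), where 3 fragments would have been 0.101, 0.143 and 0.0533 RPM, and the highest late count was 140 fragments in WT iXist-ChrX_Dom on day 21. By day, the order of mean levels in iXist-ChrX_Dom was day 2, ES, 3, 5, 7, 21, 35, 15 and 52, and neighbours did not overlap between ES and day 3 or between days 3 and 5. In iXist-ChrX_Cast the order was day 2, ES, 3, 5, 7, 15, 21 and 35, and neighbours did not overlap between days 7 and 15 or between days 15 and 21.

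Spry2, Spry4 and Dusp6 are the feedback inhibitors. Sprouty proteins damp the signal between receptor and ERK, and Dusp6 removes the activating phosphates from ERK itself. Spry4 had the clearest loss and regain. In iXist-ChrX_Dom it stood at 46.8 and 58.6 RPM in ES cells, 14.7 to 31.98 RPM (median 18.1) on days 2-3, 6.10 to 16.1 RPM (median 10.0) on days 5-7 and 12.3 to 66.3 RPM (median 24.9) late. In iXist-ChrX_Cast the ES libraries held 32.1, 46.6 and 58.0 RPM, days 2-3 held 8.88 to 44.4 RPM (median 15.5), days 5-7 held 1.61 to 8.004 RPM (median 4.97) and late libraries held 13.3 to 45.3 RPM (median 28.8). In iXist-ChrX_Cast the periods of low and high level were apart, since all 14 replicates of days 5-7 lay below every replicate of days 2-3 and all 9 late libraries lay above every replicate of days 5-7. In iXist-ChrX_Dom 7 of 8 and 5 of 8 did so.

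The first drop in Spry4, from ES to days 2-3, was of like size in both lines, at a log2 change of -1.43 ± 0.52 in A3 (edgeR adjusted p = 0.0569, not called) and -1.44 ± 0.38 over D5 and G6 (2.72-fold lower, edgeR adjusted p = 0.00515). The call in iXist-ChrX_Cast rested on the single ES library of G6: without it the change was -0.94 (edgeR adjusted p = 0.175). In iXist-ChrX_Dom the change passed the threshold when the A3 library of day 21, 35 or 52 was left out (log2 changes -1.42, -1.43 and -1.45). Spry4 then fell 1.78-fold to days 5-7 in iXist-ChrX_Dom (-0.83 ± 0.32, edgeR adjusted p = 0.0434) and 3.79-fold in iXist-ChrX_Cast (-1.92 ± 0.24, edgeR adjusted p = 7.31e-08). The fall in iXist-ChrX_Dom lost its call in 11 of 26 refits that each left out 1 replicate, with changes from -0.92 to -0.73 over all refits. The 11 were replicate 2 of WT on days 2, 3, 5 and 7, replicate 1 of WT on day 7, replicate 2 of the A3 ES libraries, replicate 1 of A3 on days 2, 3, 5 and 7 and replicate 2 of A3 on day 2. Late, Spry4 rose 3.22-fold in iXist-ChrX_Dom (1.69 ± 0.32, edgeR adjusted p = 0.000292) and 6.91-fold in iXist-ChrX_Cast (2.79 ± 0.26, edgeR adjusted p = 1.61e-10), and the rise kept its call in every such refit. Late against ES it was not called, at -0.15 in A3 with a 95% interval from -1.21 to 0.91 and -0.35 over D5 and G6 with an interval from -1.17 to 0.48, so a return to the ES level and a shortfall of 2-fold could not be told apart. Without the A3 library of day 52, at 66.3 RPM the highest late value, the A3 change was -1.06 (edgeR adjusted p = 0.0402).

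Spry2 moved less. In iXist-ChrX_Dom its level was 16.97 and 17.98 RPM in ES cells, 8.38 to 16.2 RPM (median 13.1) on days 2-3, 7.45 to 17.98 RPM (median 12.6) on days 5-7 and 5.85 to 28.8 RPM (median 15.9) late. Both ES libraries lay above every replicate of days 2-3, the later periods overlapped, and no change between periods was called in that line. In iXist-ChrX_Cast it held 16.3, 22.3 and 23.0 RPM in ES cells, 8.79 to 24.5 RPM (median 12.4) on days 2-3, 7.00 to 12.9 RPM (median 9.57) on days 5-7 and 11.4 to 38.2 RPM (median 18.3) late. There 8 of 9 late libraries lay above every replicate of days 5-7, and the late rise was 2.44-fold (log2 change 1.28 ± 0.17, edgeR adjusted p = 1.25e-07). The falls before it were small. From ES to days 2-3 the change was -0.74 ± 0.26 (edgeR adjusted p = 0.0324), which lost its call without the ES library of D5 replicate 1 (-0.52), the ES library of G6 (-0.53), D5 on day 2 replicate 1 (-0.69), D5 on day 3 replicate 1 (-0.67) or G6 on day 2 replicate 1 (-0.67). From days 2-3 to days 5-7 it was -0.37 ± 0.15 (edgeR adjusted p = 0.0395), and 22 of 39 refits without 1 replicate lost the call, with changes from -0.41 to -0.30. Late against ES, Spry2 was not called over D5 and G6 (0.58 ± 0.29, edgeR adjusted p = 0.0872), and was without D5 ES replicate 1 (0.81), without G6 of day 15 (0.77) or without day 15 altogether (0.85).

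Dusp6 showed no loss. In iXist-ChrX_Dom it stood at 14.4 and 16.8 RPM in ES cells, 11.3 to 20.5 RPM (median 15.6) on days 2-3, 11.3 to 26.2 RPM (median 15.8) on days 5-7 and 23.9 to 42.9 RPM (median 29.96) late. In iXist-ChrX_Cast it held 12.9, 13.7 and 16.2 RPM in ES cells, 11.3 to 33.7 RPM (median 15.8) on days 2-3, 9.42 to 38.3 RPM (median 15.5) on days 5-7 and 14.7 to 59.8 RPM (median 39.1) late. Up to day 7 the periods overlapped, and the change from days 2-3 to days 5-7 was 0.25 ± 0.18 in iXist-ChrX_Dom (95% interval -0.10 to 0.60) and 0.02 ± 0.19 in iXist-ChrX_Cast (-0.36 to 0.40). Late against days 5-7 it rose 2.20-fold in iXist-ChrX_Dom (log2 change 1.14 ± 0.18, edgeR adjusted p = 4.4e-05) and 2.53-fold in iXist-ChrX_Cast (1.34 ± 0.21, edgeR adjusted p = 3.46e-06). Late against ES it was 3.11-fold higher in A3 and 3.31-fold higher over D5 and G6, and among the 6 genes it was the one called higher than in ES cells. The lowest late value, 14.7 RPM in WT iXist-ChrX_Cast on day 15, lay within the range of days 5-7. The 3 CGGAA matches printed above lie in front of this gene, and their part in its level was not tested.

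Etv4 and Etv5 are transcription factors of the Pea3 group and are classical ERK targets. Etv4 fell and rose by more in iXist-ChrX_Cast than in iXist-ChrX_Dom, but neither difference between the lines was called (edgeR adjusted p = 0.238 and 0.121). In iXist-ChrX_Dom it held 16.3 and 20.1 RPM in ES cells, 13.5 to 31.2 RPM (median 20.2) on days 2-3, 5.57 to 28.3 RPM (median 17.9) on days 5-7 and 15.4 to 39.3 RPM (median 24.1) late. In iXist-ChrX_Cast it held 9.31, 12.5 and 17.03 RPM in ES cells, 7.85 to 21.0 RPM (median 15.4) on days 2-3, 0.225 to 12.2 RPM (median 2.63) on days 5-7 and 7.07 to 45.8 RPM (median 23.5) late. Of 14 replicates of days 5-7 in iXist-ChrX_Cast, 11 lay below every replicate of days 2-3, down to 0.225 RPM (12 fragments) in D5 on day 7, and 8 of 9 late libraries lay above all of them. In iXist-ChrX_Dom the drop came on day 7, where 4 replicates held 5.57 to 13.9 RPM against 21.8 to 28.3 RPM on day 5.

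Etv4 fell 3.39-fold from days 2-3 to days 5-7 in iXist-ChrX_Cast (log2 change -1.76 ± 0.39, edgeR adjusted p = 0.000341), and the change in iXist-ChrX_Dom was -0.38 ± 0.29 with a 95% interval from -0.95 to 0.19. With a separate mean for each day in the fit, the latter was -0.54 and passed the threshold (edgeR adjusted p = 0.00839). Late, Etv4 rose 6.36-fold in iXist-ChrX_Cast (2.67 ± 0.43, edgeR adjusted p = 4.51e-06) and 1.86-fold in iXist-ChrX_Dom (0.90 ± 0.29, edgeR adjusted p = 0.0151). The rise in iXist-ChrX_Dom was lost without the A3 library of day 52 (0.70, edgeR adjusted p = 0.0547) and when libraries were scaled by their totals (0.60, edgeR adjusted p = 0.0861). Late against ES, Etv4 was 1.19 higher on the log2 scale in A3 (edgeR adjusted p = 0.0594, and 1.16 with an adjusted p of 0.0486 without A3 replicate 1 of day 7) and 1.32 ± 0.78 over D5 and G6 (edgeR adjusted p = 0.146).

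Etv5 is the most abundant of the 6 genes in fragments, and its gene is the longest. In iXist-ChrX_Dom it held 228 and 258 RPM in ES cells, 163 to 251 RPM (median 226) on days 2-3, 77.3 to 166 RPM (median 119.7) on days 5-7 and 51.8 to 107 RPM (median 69.2) late. In iXist-ChrX_Cast it held 186, 211 and 229 RPM in ES cells, 117 to 246 RPM (median 163) on days 2-3, 17.02 to 86.4 RPM (median 50.3) on days 5-7 and 44.1 to 81.8 RPM (median 55.0) late. All 14 replicates of days 5-7 in iXist-ChrX_Cast, and 7 of 8 in iXist-ChrX_Dom, lay below every replicate of days 2-3. The late libraries of iXist-ChrX_Cast stayed inside the range of days 5-7.

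The fall of Etv5 to days 5-7 was 1.73-fold in iXist-ChrX_Dom (log2 change -0.79 ± 0.19, edgeR adjusted p = 0.00312) and 3.16-fold in iXist-ChrX_Cast (-1.66 ± 0.21, edgeR adjusted p = 1.03e-07). Late against days 5-7 it was called in neither line, at -0.33 ± 0.19 in iXist-ChrX_Dom (95% interval -0.71 to 0.05) and 0.37 ± 0.23 in iXist-ChrX_Cast (-0.09 to 0.82). Without the A3 library of day 52 the first of these was -0.56 (edgeR adjusted p = 0.0118), and with libraries scaled by their totals it was -0.62 (edgeR adjusted p = 0.00685). Against ES cells the late level stayed 2.29-fold lower in A3 (-1.20 ± 0.33, edgeR adjusted p = 0.00364) and 2.64-fold lower over D5 and G6 (-1.40 ± 0.37, edgeR adjusted p = 0.00166). In A3 that call was lost without ES replicate 2 (-1.02, edgeR adjusted p = 0.0501). In iXist-ChrX_Dom the levels of Etv5 did not overlap between days 5 and 7, and in iXist-ChrX_Cast they did not overlap between ES and day 3.

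**Figure D2:**
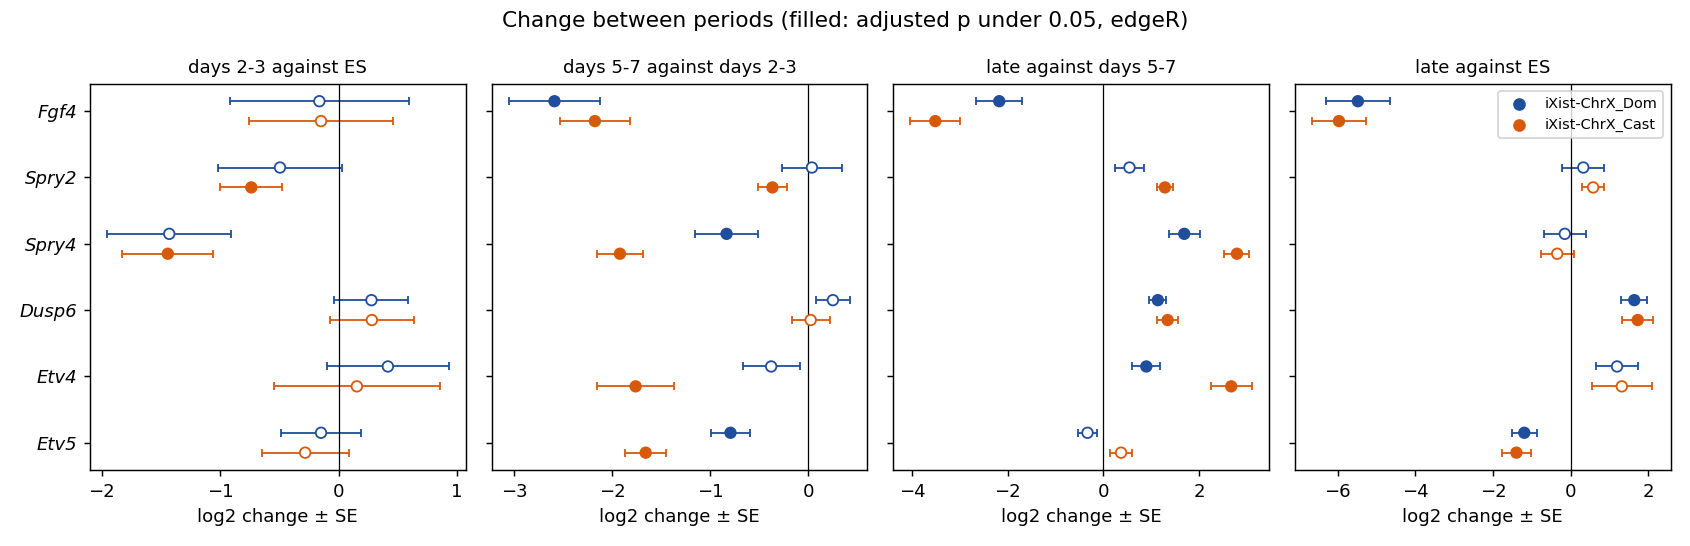
Log2 change ± SE (horizontal axis) of each gene (vertical axis) between periods, in iXist-ChrX_Dom (blue) and iXist-ChrX_Cast (orange), with filled points for an edgeR adjusted p under 0.05. Horizontal scales differ between panels. From days 5-7 to late, Fgf4 lies at -2.18 and -3.51 while Spry4, Dusp6 and Etv4 lie between 0.90 and 2.79.

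Counted over the 6 genes, days 2-3 against ES gave 0 calls in iXist-ChrX_Dom by edgeR, with 1 gene at an unadjusted p under 0.05 and 1 called by DESeq2 (Spry4), where 9.26% of all genes tested were called higher and 10.9% lower (20.2% in either direction). In iXist-ChrX_Cast 2 genes were called lower and 0 higher, where 14.1% of all genes were lower and 14.8% higher. Days 5-7 against days 2-3 gave 3 genes lower and 0 higher in iXist-ChrX_Dom (16.1% and 20.9% of all genes) and 5 lower and 0 higher in iXist-ChrX_Cast (27.9% and 28.1% of all genes). In iXist-ChrX_Dom the calls of Spry4 and Etv5 needed both genotypes. In WT alone 0 genes were called, with log2 changes of -1.93 for Fgf4, -1.09 for Spry4 and -0.83 for Etv5. Their edgeR adjusted p values were 0.0535, 0.117 and 0.0525. In A3 alone Fgf4 was called (-3.25, edgeR adjusted p = 0.00213), but Spry4 (-0.58, edgeR adjusted p = 0.368) and Etv5 (-0.76, edgeR adjusted p = 0.0509) were not. These counts include Fgf4, which is a ligand and not an ERK output. The median log2 change of the 6 genes, Fgf4 included, was -0.59 and -1.71, against 0.02 and -0.0031 over all genes. Genes of endoderm and mesoderm were higher on the same days, with ranges that overlap days 2-3 in iXist-ChrX_Cast. The summed level of 8 of them went from 7.224-58.19 RPM (median 20.91) on days 2-3 to 77.45-281.8 RPM (median 150.3) on days 5-7 in iXist-ChrX_Dom, and from 9.836-168.9 RPM (median 45.22) to 26.63-284.9 RPM (median 126.4) in iXist-ChrX_Cast. T, the mesoderm factor Brachyury, went from at most 1.67 RPM to 6.89-244.8 RPM and from at most 3.98 RPM to 1.04-91.1 RPM. The part of these genes' cells in the falls was not tested.

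Late against days 5-7, 3 genes were called higher and 1 lower in iXist-ChrX_Dom, where 25.5% of all genes were called higher and 23.3% lower. In iXist-ChrX_Cast 4 were called higher and 1 lower, against 28.7% and 28% of all genes. The gene called lower was the ligand Fgf4 in both lines. The median of the 6 genes, Fgf4 included, was 0.72 and 1.31, against 0.01 and -0.02 over all genes. Late against ES, each line gave 1 gene higher (Dusp6) and 2 lower (Fgf4 and Etv5), where 30.5% of all genes were higher and 26.8% lower in iXist-ChrX_Dom and 30.4% higher and 28.7% lower in iXist-ChrX_Cast. With about 1 in 4 genes called each way, the counts late against ES lie close to the background. Late, ES and days 5-7 comparisons share libraries, so their counts are not independent. Where libraries were scaled by their totals in place of trimmed means (TMM), the median of all genes moved by -0.26 late against days 5-7 and -0.48 late against ES in iXist-ChrX_Dom, and by 0.12, -0.12, -0.23 and -0.28 over the 4 comparisons of iXist-ChrX_Cast in the order given; no call of the 6 genes turned in direction.

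The late libraries differed widely in fibroblast genes, as the plot of late libraries shows. WT iXist-ChrX_Cast on day 15 had the lowest sum of the 8 fibroblast genes (275.3 RPM) and the lowest late levels of Dusp6 (14.7 RPM) and Etv4 (7.07 RPM), with Spry4 at 13.3 RPM. WT iXist-ChrX_Dom on day 21 came next at 402.9 RPM and had the lowest Spry2 (5.85 RPM) and the highest late Fgf4 (5.28 RPM). At the other end, D5 on day 35 (16300 RPM of fibroblast genes) had the highest Dusp6 (59.8 RPM) and Etv4 (45.8 RPM), and A3 on day 52 (10530 RPM) had the highest Spry4 (66.3 RPM) and Etv5 (107 RPM). The order was not the same throughout: G6 on day 35, with 14120 RPM of fibroblast genes, held 29.3 RPM of Dusp6 and 19.5 RPM of Etv4. Fgf4 was at 0 in the 3 late libraries with the highest sums. In WT iXist-ChrX_Cast on day 15 Spry4 was above every replicate of days 5-7 of its line, and Dusp6 was not. The part of the fibroblast genes in these rises was not tested, and in bulk RNA fewer cells of a type and less RNA per cell cannot be told apart. Added FGF and EGF, replating, later age and longer Xist induction all set the late libraries apart from days 5-7 and cannot be told apart here.

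**Figure D3:**
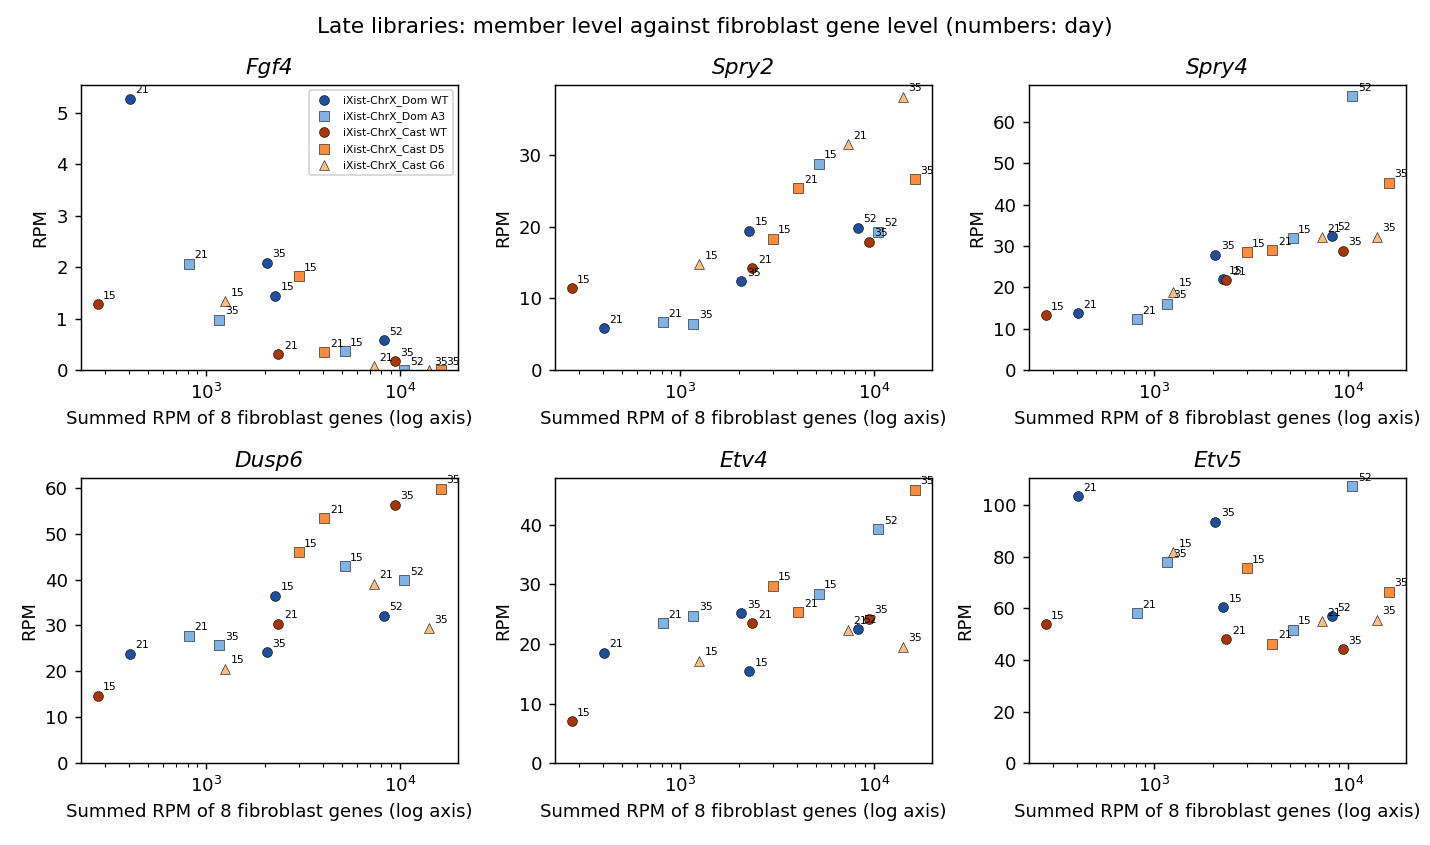
Level of each gene in the 17 late libraries (vertical axis, RPM, from 0) against the summed RPM of 8 fibroblast genes (horizontal axis, log scale), with 1 point per library and its day beside it. Fgf4 is at 0 in the libraries at 10530, 14120 and 16300 RPM, and Dusp6 runs from 14.7 RPM at the lowest sum to 59.8 RPM at the highest.

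Per base of gene length (RPM per kilobase of gene, RPKM), which allows genes to be compared, the order of mean levels changed with time. In ES cells Fgf4 led in both lines at 13.2 RPKM in iXist-ChrX_Dom and 11.2 RPKM in iXist-ChrX_Cast, and Etv4 was lowest at 1.17 and 0.83 RPKM. Late, Dusp6 led at 7.42 and 9.11 RPKM, followed by Spry2 at 3.05 and 4.52 RPKM, and Fgf4 was lowest at 0.415 and 0.153 RPKM. Spry4 (1.85 RPKM in both lines) and Etv4 (1.58 and 1.53 RPKM) lay between, and their replicate ranges overlapped late.

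Whether the loss of SmcHD1 altered these genes was asked within each line, with day in the fit. On days 2 to 7 in iXist-ChrX_Dom 0 of the 6 were called by edgeR (2 at an unadjusted p under 0.05 and 0 called by DESeq2), where 0.803% of all genes were called. Fgf4 was lower in A3 by 0.84 ± 0.31 on the log2 scale (edgeR adjusted p = 0.225) and Etv4 higher by 0.42 ± 0.16 (edgeR adjusted p = 0.243). The other 4 genes had 95% intervals within -0.46 to 0.59. In iXist-ChrX_Cast 0 were called (0 at an unadjusted p under 0.05, 0 by DESeq2), against 0.381% of all genes, and the intervals of all 6 lay within -0.78 to 0.68. For Fgf4 the KO clones went opposite ways, with D5 alone higher than WT by 0.67 (edgeR adjusted p = 0.0226, called) and G6 alone at -0.51 (edgeR adjusted p = 0.238). The share of all genes called with D5 alone is not given here.

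In the late libraries, KO against WT gave 0 calls by edgeR in both lines, as for all genes (0% called in each), with 3 of the 6 genes at an unadjusted p under 0.05 in each line. DESeq2 called none in iXist-ChrX_Dom, and Spry2 and Spry4 higher in KO in iXist-ChrX_Cast, where it called 444 of 14963 genes. Spry2 there was 11.4, 14.2 and 17.9 RPM in WT on days 15, 21 and 35, 18.3, 25.4 and 26.6 RPM in D5 and 14.8, 31.5 and 38.2 RPM in G6. Both KO clones were above WT on each day, by 0.88 ± 0.23 on the log2 scale (95% interval 0.44 to 1.33, edgeR adjusted p = 0.296). Their fibroblast sums were also higher on each day, at 2998, 4069 and 16300 RPM in D5 and 1253, 7310 and 14120 RPM in G6 against 275.3, 2357 and 9373 RPM in WT, and their part in the difference was not tested. The late change itself differed between KO and WT for 0 genes in either line (0% of all genes; among the 6, 0 in iXist-ChrX_Dom and 1 in iXist-ChrX_Cast at an unadjusted p under 0.05, none by DESeq2).

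Between the lines, WT iXist-ChrX_Dom was above WT iXist-ChrX_Cast on days 2 to 7 for 2 of the 6 genes, where 12.8% of all genes were higher. Fgf4 was 1.52-fold higher (log2 difference 0.60 ± 0.18, edgeR adjusted p = 0.0172) and Etv5 1.68-fold higher (0.75 ± 0.23, edgeR adjusted p = 0.0244), and both lost their call without the replicate 2 of WT iXist-ChrX_Dom on day 5 (0.50 and 0.66) or on day 7 (0.49 and 0.68). Etv4 (0.96 ± 0.37) and Spry4 (0.67 ± 0.26) did not pass, and both did without replicate 3 of WT iXist-ChrX_Cast on day 7 (1.23 and 0.85). Etv4 also passed without replicate 3 of WT iXist-ChrX_Cast on day 5 (1.10), and Spry4 without replicate 1 of WT iXist-ChrX_Dom on day 2 (0.80) or replicate 2 of WT iXist-ChrX_Cast on day 2 (0.79). The difference in the fall to days 5-7 between the lines was called for none of the 6 genes, where 0.539% of all genes were (3 at an unadjusted p under 0.05, 0 by DESeq2). It was 1.37 ± 0.55 for Etv4, 1.08 ± 0.40 for Spry4 and 0.86 ± 0.31 for Etv5, each a larger fall in iXist-ChrX_Cast. The difference in the late change was also called for none, where 0.63% of all genes were (4 at an unadjusted p under 0.05, 0 by DESeq2), with Etv4 at -1.81 ± 0.58 and Spry4 at -1.13 ± 0.42. Etv4 passed without WT iXist-ChrX_Cast replicate 3 of day 5 (-2.13), without its day 15 library (-2.01) or without D5 replicate 2 of day 5 (-2.10), and Spry4 passed without A3 of day 52 (-1.54). Line and the experiment it was grown in cannot be told apart.

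Other genes of the pathway were counted by role from lists written with earlier results of these data known. Of 25 other FGF and EGF family ligands, 22 were tested in iXist-ChrX_Dom and 23 in iXist-ChrX_Cast. From days 2-3 to days 5-7, 4 rose and 3 fell in iXist-ChrX_Dom and 5 rose and 6 fell in iXist-ChrX_Cast. Of all genes, 20.9% rose and 16.1% fell in iXist-ChrX_Dom, and 28.1% rose and 27.9% fell in iXist-ChrX_Cast, so the ligands lay near the background. Fgf8, a ligand of the gastrulating embryo and the early brain, rose 22.9-fold (log2 change 4.51 ± 0.72) and 5.16-fold (2.37 ± 0.46), while Fgf15 fell 3.71-fold and 8.63-fold. Late, 6 and 7 ligands rose and 1 and 5 fell (all genes: 25.5% and 28.7% rose, 23.3% and 28% fell), with Fgf7 18.7-fold and 25-fold higher and Fgf1 7.13-fold and 21.4-fold higher. Fgf7 is a product of mesenchymal cells. Fibroblast genes rose in the same libraries, and their part in its rise was not tested.

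Of 10 receptors, 5 rose and 1 fell in iXist-ChrX_Dom to days 5-7, and 7 rose and 1 fell in iXist-ChrX_Cast, where 20.9% and 28.1% of all genes rose. Erbb4 rose 9.86-fold and 7.64-fold, Erbb2 2.90-fold and 2.91-fold, and Egfr, the receptor of EGF, 2.61-fold and 4.40-fold. Egfr rose again late, 4.58-fold and 3.08-fold, while Klb, a co-receptor of endocrine FGFs, fell 11-fold and 4.36-fold. Late against ES, 6 receptors were higher and 2 lower in each line (all genes: 30.5% and 30.4% higher), with Egfr 29.8-fold and 21.1-fold higher.

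Of 23 genes of the ERK kinase chain, 7 rose and 1 fell in iXist-ChrX_Dom to days 5-7, and 9 rose and 4 fell in iXist-ChrX_Cast. Of all genes 20.9% and 28.1% rose, so these counts were not far above the background. Gab2, a docking protein that passes receptor signals on, led in both lines at 3.38-fold and 3.90-fold. Late against ES 11 were higher in each line and 1 and 5 were lower (all genes: 30.5% and 30.4% higher, 26.8% and 28.7% lower), with Gab2 16.9-fold and 17.4-fold higher.

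Of 16 other feedback inhibitors 15 were in the files and tested. Late against days 5-7, 6 rose and 1 fell in iXist-ChrX_Dom, where 25.5% of all genes rose and 23.3% fell, and 9 rose and 3 fell in iXist-ChrX_Cast, where 28.7% rose and 28% fell. Spry1, another Sprouty, rose 2.28-fold in iXist-ChrX_Dom. Dusp9, a phosphatase of ERK, fell 5.51-fold and 4.06-fold, after rises of 3.52-fold and 2.46-fold from days 2-3 to days 5-7. Spred3, which restrains Raf, was already 6.20-fold and 5.54-fold above ES on days 2-3, and Dusp1 was 8.01-fold and 2.23-fold below.

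Of 18 other ERK output genes, 7 fell and 0 rose in iXist-ChrX_Dom from ES to days 2-3, and 4 fell and 0 rose in iXist-ChrX_Cast, where 10.9% and 14.1% of all genes fell. Fosb and Fos, immediate early genes, fell furthest, by 7.83 ± 2.07 and 5.10 ± 1.25 on the log2 scale in A3 and by 4.67 ± 0.90 and 3.40 ± 0.67 over D5 and G6. To days 5-7, 7 rose in each line and 0 and 3 fell, where 20.9% and 28.1% of all genes rose. Fos rose 5.91-fold and 15.6-fold there, at the days when Spry4 and Etv5 were lower. Late, 5 and 8 rose and 1 and 3 fell (all genes: 25.5% and 28.7% rose), with Egr2 30.9-fold and 18.3-fold higher and Emp1 30.3-fold and 21.3-fold higher. Between KO and WT, 0 genes of any of these lists were called, in the late change as on days 2 to 7 and late.

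**Figure D4:**
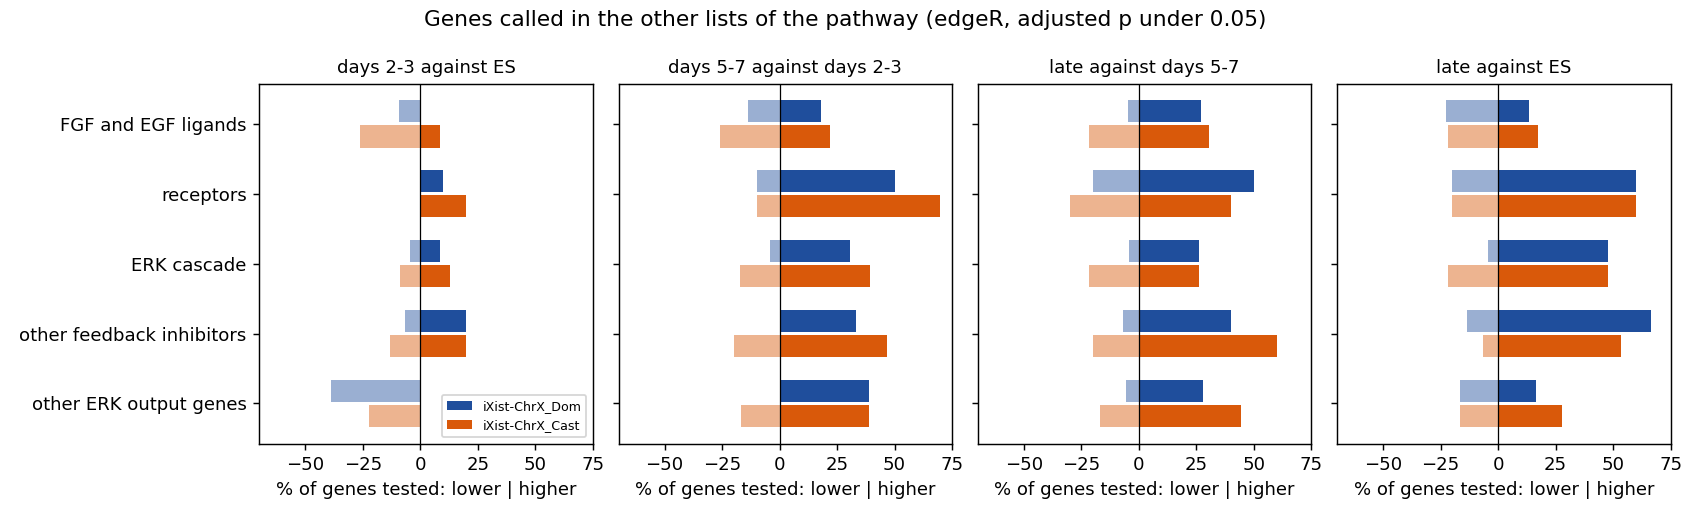
Share of the tested genes of each list (horizontal axis, percent) called higher (to the right, full colour) or lower (to the left, pale) by edgeR in 4 comparisons, in iXist-ChrX_Dom (blue) and iXist-ChrX_Cast (orange). Of 18 other ERK output genes, 7 and 4 were lower on days 2-3 against ES, and 7 in each line were higher on days 5-7.

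The members' own courses were compared over all 65 replicates by Pearson's r of log2 CPM (scaled counts). These are descriptions, since replicates share their line, clone and depth. Spry4 and Etv4 were most alike (r = 0.81), then Spry2 and Spry4 (0.74), and Fgf4 and Dusp6 ran opposite (-0.76). These values follow the period means in part: within days 2-3 Fgf4 and Dusp6 had an r of 0.41 and Spry4 and Etv4 of 0.37, and within days 5-7 they had -0.29 and 0.86. Among 16975 other genes, those most like Fgf4 were Liph, Gdf3 and Cbx7 (r = 0.97 each). For Spry2 they were Zfyve20 (0.82), Klhl29 and Dock10 (0.81 each), and for Spry4 Gareml (0.88), Enox1 and Plxna3 (0.87 each). For Dusp6 they were Sar1a, Smpd2 and Marcks (0.88 each), for Etv4 Neto2 (0.88), Tmem35 (0.83) and Ggt7 (0.82), and for Etv5 1700101E01Rik, Slc39a14 and C630028M04Rik (0.89 each). The likeness of the genes nearest to Fgf4 was closer than that of any gene to the other members.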

How the data were processed

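ChrRNA-seq libraries were made with a stranded TruSeq total RNA kit. Per the labels and the study's methods, the authors removed ribosomal reads with Bowtie2 2.3.2, aligned pairs with STAR 2.4.2a to an N-masked mm10 genome, split reads by allele with SNPsplit and counted fragments over whole transcripts with strand-specific featureCounts. The deposited count files hold raw counts per gene, in total and per allele. The authors' tables of X-linked allelic ratios, deposited as a fraction, were used only to learn which allele column is Cast, and 26 columns of the iXist-ChrX_Dom table that name other libraries were not used. File starts were 1 base before the RefSeq start for the 4 genes with a RefSeq promoter.

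RPM is fragments of a gene per 1000000 counted fragments. Groups came from line, clone and day in the labels. Changes were tested on counts with edgeR 4.0.16 (R 4.3.3; TMM, filterByExpr, quasi-likelihood test, Benjamini-Hochberg, threshold 0.05) in 1 fit per line with a mean per clone and period, clones weighted equally within a genotype and genotypes equally. Days of a period served as replicates, and late days with 1 library borrow their spread from the line. Per the study, long-term cells were kept and passaged, so late libraries of a clone may come from 1 culture. The fit took them as independent, as it did the days of 1 time course. The adjusted p values can therefore be too small. Per the study, replicates up to day 7 are of repeated time courses, whose starting cells are 1 clone. KO and line contrasts had day as a factor. They had no term for clone, so libraries of D5 and G6 counted alike as KO replicates. The 95% intervals were formed from the SE with the normal distribution, and are too narrow where few libraries are compared. For Spry2 over D5 and G6 late against ES, for example, the interval of 0.007 to 1.148 left out 0 at an unadjusted edgeR p of 0.0557. DESeq2 1.42.0, other scalings, filters and subsets, a replicate block and refits without each replicate were alternatives. No 2 libraries had equal counts in every gene. On simulated counts for all 22556 genes, a log2 change of 1 was recovered for 99% of changed genes late against days 5-7 in both lines. Late between KO and WT it was recovered for 76% (iXist-ChrX_Dom) and 72% (iXist-ChrX_Cast). The simulation gave every gene the same spread (dispersion 0.05), with none added between days, clones or time courses. Changes were planted only in genes above a set mean count. These shares therefore check the fits and do not give their power on the real libraries. The 6 genes, the lists and the added alternatives were chosen with earlier results of these data known. Named genes of a list were the 3 with the largest change among those called in that comparison, or that rule's genes carried to another comparison.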

Additional observations from a re-analysis of the deposited data

How the results depend on the processing

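The 3 to 5 calls per line in the fall to days 5-7 and the late change kept their direction in all settings run. Days 2-3 against ES in iXist-ChrX_Dom gave 1 call (Spry4) in place of 0 with library totals, RLE scaling, DESeq2, a mean per clone and day, or the compared libraries alone, and in iXist-ChrX_Cast 1 in place of 2 with library totals. The fall to days 5-7 in iXist-ChrX_Dom gave 0 calls in WT alone and 1 (Fgf4) in KO alone, both as contrasts within the same fit of the line. KO against WT in iXist-ChrX_Cast gave 1 call (Fgf4) on days 2-7 with D5 alone, a direction that turned with G6 alone (log2 difference -0.51), and 2 late with DESeq2. WT iXist-ChrX_Dom against WT iXist-ChrX_Cast gave 4 calls with library totals in place of 2. Apart from DESeq2 late in iXist-ChrX_Cast, shares of all genes called under these alternatives are not given. The counts are therefore not set against a background. ES levels in A3 moved by more than their SD to 44.1 (Fgf4), 15.1 (Spry2), 13.4 (Dusp6) and 211 (Etv5) CPM (TMM-scaled). Causes were not tested where none is given.

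Leaving out 1 replicate at a time, counts ranged from 0 to 1 for days 2-3 against ES in iXist-ChrX_Dom, 0 to 2 in iXist-ChrX_Cast, 0 to 4 for WT between lines and 0 to 1 for the line difference of the late change. Spry4 late against ES in A3 ranged from -1.06 to 0.09, positive without A3 of day 21 (0.094) or day 35 (0.089). Deviations of same-numbered replicates mostly went together across days of 1 clone (over 0.1 in 11 of 12 pairs in iXist-ChrX_Dom and 17 of 18 in iXist-ChrX_Cast, medians 0.34 and 0.34), and less so between clones on 1 day (-0.72 to -0.41, 0 of 4 pairs over 0.1, and -0.27 to 0.79, 8 of 12), so the numbers do not pair clones. With a replicate block the counts of calls stayed at 3 and 5 for the fall to days 5-7 and at 0 for KO against WT on days 2-7. With numbers crossed in iXist-ChrX_Dom, an alternative chosen after seeing the data like the line differences and the fits without day 15, the count was 0. Without day 15 no count of calls moved by over 1.5 times. Depth limits Fgf4 late, at 0 to 140 fragments per library.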

Other observations

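Both alleles of the 6 genes were read in every clone and period. The share of Cast fragments among allelic fragments lay between 0.393 and 0.562 for Spry2, Spry4, Dusp6 and Etv5 over all clones and periods of both lines. The Etv5 share was lower late than at the first period in each clone, and was already lower on days 5-7. On those days it was 0.435 (WT) and 0.422 (A3) in iXist-ChrX_Dom, and 0.401 (WT), 0.414 (D5) and 0.415 (G6) in iXist-ChrX_Cast. In A3 it was 0.505 in ES cells (4797 allelic fragments) and 0.404 late (5489 fragments, Wilson 95% interval 0.391 to 0.417), in G6 0.545 and 0.400, in D5 0.488 and 0.416. WT cells of iXist-ChrX_Dom had 0.478 on days 2-3 and 0.419 late. Those of iXist-ChrX_Cast had 0.446 and 0.410. Genes near Etv5 had medians of 0.4673 to 0.4927 throughout, and no test was run. Genes starting within 5 Mb of each had median shares of 0.436 to 0.511. Etv4 stood higher in iXist-ChrX_Dom, and more so in A3 than in WT. Its share was 0.531 to 0.551 in WT and 0.574 to 0.651 in A3. Its neighbours had medians of 0.515 to 0.557 in WT and 0.585 to 0.624 in A3. The part of this imbalance in the Etv4 level of A3 was not tested. In late A3 libraries the Etv4 share was 0.651 (Wilson 95% interval 0.628 to 0.673, 1673 allelic fragments, 4 libraries from 0.627 to 0.674) against a neighbour median of 0.615. In iXist-ChrX_Cast the Etv4 share was 0.414 to 0.512. Late Fgf4 shares rested on 9 to 82 fragments per clone and are too thin to read, with a Wilson interval of 0.514 to 0.719 even in the best covered clone. Intervals cover counting error only.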
